A study of Mus musculus with 3 samples.

Results

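The genes described here are 8 that build and shape the lipid droplet, the store of triglyceride inside a fat cell: the perilipins Plin1, Plin2, Plin3, Plin4 and Plin5, the CIDE genes Cidea and Cidec, and the seipin gene Bscl2. They were taken by symbol from a table of 39179 mouse genes, and each symbol matched 1 row. The rule reads no measured value, but the genes were picked with earlier results of these data known. The table gives the RNA that came down with Flag-tagged FTO, an enzyme that removes methyl groups from adenosine in RNA, and the RNA that came down with a nonspecific antibody. All 3 libraries came from white fat of C57BL/6 mice aged 16 weeks that carried a Flag-FTO transgene and had been fasted overnight. The Flag-IP group is 2 libraries pulled down with the anti-Flag M2 monoclonal antibody, and the IgG-IP group is 1 library pulled down with IgG. With the transgene's promoter, the fat depot and the number of animals per library not given in the sources used here, both Flag-IP libraries may be technical repeats. The p-values measure only the spread between these 2 libraries, as shared over genes.

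Perilipins coat the droplet surface and control how lipases reach the fat. PLIN1 is the main coat of the large droplet of white adipocytes, and on fasting its phosphorylation releases ABHD5, the activator of adipose triglyceride lipase. CIDE proteins gather where droplets touch and pass lipid from the smaller to the larger one, and seipin sits where a new droplet leaves the endoplasmic reticulum.

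The libraries held 98227791 counts (Flag-IP 1), 95824218 (Flag-IP 2) and 74176962 (IgG-IP), but 28 genes took 97.0% to 97.6% of them, and the median tested gene had 24 to 26 counts. The 8 lipid droplet genes together had 250 and 253 counts in Flag-IP, against 241 in IgG-IP, so most values below rest on few counts. In such bulk samples fewer cells of a type and less RNA per cell cannot be told apart. Pooled over 19121 genes, counts varied between Flag-IP 1 and Flag-IP 2 beyond counting error (chi-square per degree of freedom 3.09). That pooled value does not show how far each gene varied, or whether the libraries came from separate animals. Of the 15 markers of white adipocytes 14 could be tested, with 1 higher in Flag-IP (Aqp7, the glycerol channel, 1932 and 1631 counts in Flag-IP and 196 in IgG-IP), 1 lower (Cd36, the fatty acid receptor, 75 and 72 against 150) and 12 that did not pass. None of the 15 was at 0 in every library, but several lay below the median tested gene in all of them. Among these were Adipoq (adiponectin, 18 and 14 counts in Flag-IP and 3 in IgG-IP), Retn (11 and 6 against 3), Slc2a4 (12 and 2 against 7) and Cfd (6 and 4 against 7). Fabp4 had 30 and 17 against 19. The 15 summed to 66.4 and 44.7 CPM (counts over the TMM-scaled library size) in Flag-IP and 35.4 in IgG-IP. Lpl, lipoprotein lipase, and Aqp7 made up most of that sum, and the other 13 markers summed to 5.33 and 4.21 CPM in Flag-IP and 5.02 in IgG-IP. Cd36 and Pparg had the most counts among those 13. Pparg (68 and 117 counts against 148) and Nrip1 (46 and 54 against 69) were lower in count in both Flag-IP libraries and did not pass. Of the 14 tested markers 11 had a log2 fold change above 0, with a median of 0.74, beside 0.03 over all tested genes. At an unadjusted edgeR p under 0.05, 5 were higher and 2 lower. The likelihood ratio test called Aqp7, Adipoq and Adrb3 higher and none lower. Aqp7 was also called with the GC trend removed (described below) and Cd36 was not. The part of these markers in the results below was not tested.

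Higher levels in Flag-IP passed the test for Plin4 and Plin1, and for no other of the 8 genes. The test was edgeR's quasi-likelihood test with Benjamini-Hochberg adjustment over all 17587 genes tested and a threshold of 0.05. Of the 7 lipid droplet genes with enough counts to be tested, 2 were higher, where 5.58% of all tested genes were called higher. None was lower, where 5.77% of all tested genes were called lower. For the lower direction edgeR also gave 0 genes at an unadjusted p under 0.05, a likelihood ratio test with common dispersion gave 0, and DESeq2 gave 0 at an unadjusted p under 0.05 and no adjusted p for any of the 7. Both Flag-IP values lay above the IgG-IP value for 4 of these 7 genes and below it for the other 3, and that placing is common, being found for 40.5% and 39.0% of all tested genes. The median log2 fold change was 0.39 over the 7 genes, beside 0.03 over all tested genes. At their transcript GC content the trend over all genes (described below) stood between 0.21 (Plin3) and 0.73 (Plin1). It stood at 0.63 for Cidea, the gene at the median, and its part in the median was not tested.

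**Figure D1:**
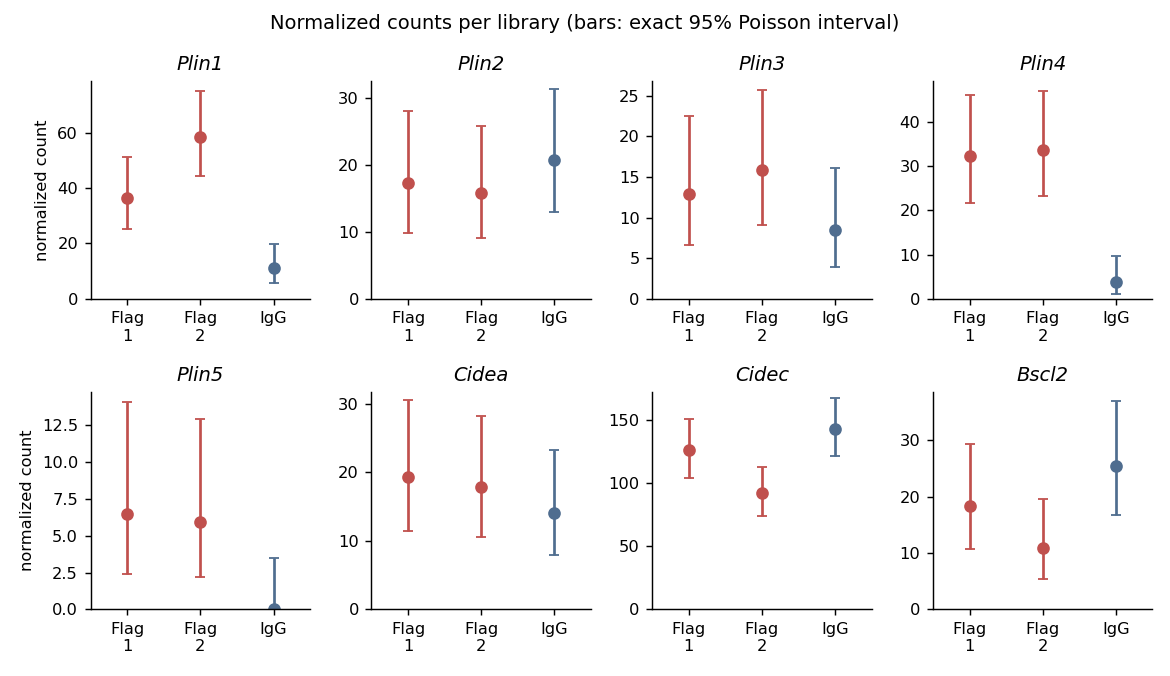
Normalized count of each lipid droplet gene in the 2 Flag-IP libraries (red) and the IgG-IP library (blue), with exact 95% Poisson intervals that cover counting error only. For Plin1 and Plin4 the Flag-IP intervals stay above the IgG-IP interval, and for every other gene at least 1 Flag-IP interval overlaps it.

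Plin4 encodes a perilipin of white adipocytes that coats newly formed droplets. It lies on chromosome 17, 56100591 to 56109803, minus strand (GRCm38). It had 30 and 34 counts in Flag-IP, against 4 in IgG-IP. Scaled for library composition these are 32.3 and 33.7 normalized counts against 3.77, so the Flag-IP libraries lay close together and well above the IgG-IP library. The log2 fold change was 3.09 ± 0.72 (SE), an 8.51-fold difference, with an edgeR adjusted p = 0.00073. Each Flag-IP library alone was 8.57-fold (95% interval 3.02 to 33.5) and 8.94-fold (3.19 to 34.7) above the IgG-IP library, by exact binomial intervals that cover counting error only. The width of those intervals comes from the 4 counts in the IgG-IP library.

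The coding part of Plin4 is built largely from a repeat of 99 bases, which encodes the repeated helix that lies on the droplet. In the transcript ENSMUST00000190703.6, 25 such units follow each other from base 615 to base 3089, and the others are 68.7% to 92.9% identical to the second. Units 2, 3 and 5 are shown because they carry, or lack, the GGACT motif that recurs along this transcript. They lie in the exon at chr17:56106940-56107038, chr17:56106841-56106939 and chr17:56106643-56106741 (GRCm38, minus strand), written 5′ to 3′ as DNA with GGACT in capitals.
Plin4 unit 2: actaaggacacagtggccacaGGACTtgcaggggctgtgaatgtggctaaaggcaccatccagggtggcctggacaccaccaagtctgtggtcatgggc
Plin4 unit 3: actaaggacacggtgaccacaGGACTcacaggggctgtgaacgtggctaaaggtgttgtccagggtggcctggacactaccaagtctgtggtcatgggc
Plin4 unit 5: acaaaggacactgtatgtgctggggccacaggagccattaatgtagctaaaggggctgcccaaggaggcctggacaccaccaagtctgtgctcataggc
Units 2 and 3 differ at 11 of 99 bases, and units 2 and 5 at 27. GGACT stands at base 22 of the unit in 12 of the 25 units. Of all 36-base windows of the transcript 22.6% occur in it more than once, so a read of that length from such a window has more than 1 place in it, and none of the windows occurs in an annotated transcript of another gene. How the authors counted such reads is unknown, with read length and multi-mapping rule not given in the sources used here.

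Plin4 overlaps Hdgfrp2 (named Hdgfl2 in the annotation), a gene for a growth factor related protein on the plus strand, but by 17 bases at their ends. Hdgfrp2 was higher as well, with 59 and 35 counts in Flag-IP and 19 in IgG-IP (log2 fold change 1.44 ± 0.46, SE, edgeR adjusted p = 0.0227). Which part of the Plin4 counts fell in those 17 bases is not known from counts per gene.

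Plin1, the coat of the adipocyte droplet and gatekeeper of lipolysis, lies on chromosome 7, 79720218 to 79732903, minus strand (GRCm38). It had 34 and 59 counts in Flag-IP, against 12 in IgG-IP, or 36.6 and 58.4 normalized counts against 11.3. Flag-IP 2 was the highest, but both Flag-IP libraries lay above the IgG-IP library. The mean was 47.5 ± 15.4 normalized counts in Flag-IP (SD, n = 2), and the log2 fold change 2.06 ± 0.51 (SE) had an edgeR adjusted p = 0.00185. Flag-IP 2 was 1.60-fold above Flag-IP 1 (95% interval 1.03 to 2.51, counting error only). For Plin4 the same ratio was 1.04-fold (0.619 to 1.76), and the intervals of both genes overlap.

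The call for Plin1 was lost in a fit that removed a trend of fold change on transcript GC content. There Plin1 had a log2 fold change of 1.34 ± 0.52 (SE) at an edgeR adjusted p = 0.137, the highest of 7 other settings whose lowest was 0.00116. Plin4 had 2.45 ± 0.74 (SE) under that setting and passed (edgeR adjusted p = 0.0243, the highest of 7 that began at 0.000329). These 7 settings were all edgeR fits. DESeq2 gave no adjusted p for either gene, with log2 fold changes of 2.07 ± 0.88 (SE) for Plin1 and 3.12 ± 1.17 (SE) for Plin4. The chosen transcripts hold 56.9% GC for Plin1 and 55.9% for Plin4, where the median of the tested coding genes is 49.4%. At their GC content the trend over all genes stood at a log2 fold change of 0.73 for Plin1 and 0.65 for Plin4, and its part in their values was not tested.

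**Figure D2:**
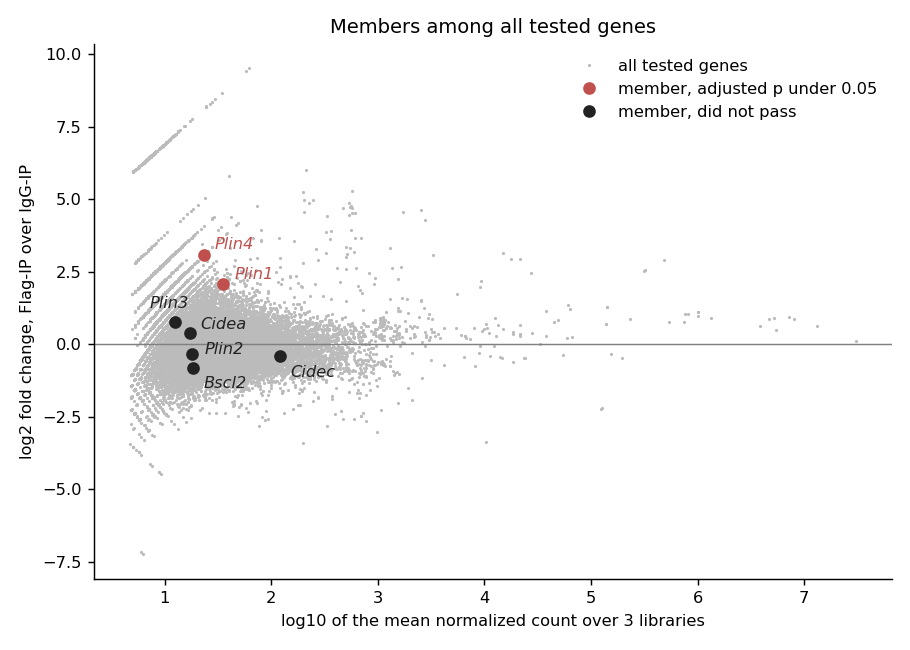
Log2 fold change of Flag-IP over IgG-IP against the log10 mean normalized count for all 17587 tested genes (grey), with the 7 tested lipid droplet genes marked. Plin4 (3.09) and Plin1 (2.06) stand toward the upper side of the cloud, and the other 5 lie between -0.80 and 0.76.

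Among 10248 other genes averaging 20 counts or more, those whose log2 CPM over the 3 libraries lay nearest to Plin1 were Ywhag, Esyt3 and Amz1. Ywhag, a gene for a phosphoserine-binding adaptor protein, had 35 and 66 counts in Flag-IP and 14 in IgG-IP, at a Euclidean distance of 0.25. Esyt3, a gene for a lipid transfer protein that tethers the endoplasmic reticulum to the plasma membrane, had 38 and 69 counts against 12, at 0.27. Amz1, a gene for a metallopeptidase, had 38 and 50 counts against 12, at 0.28. The distance covers 3 libraries and therefore mostly places genes of like count level.

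Plin5, a perilipin of tissues that burn fat, sits beside Plin4 on chromosome 17 (56111601 to 56117596, minus strand, GRCm38), 1797 bases away. It had 6 and 6 counts in Flag-IP, against 0 in IgG-IP, so the groups did not overlap. With the IgG-IP library set to a floor of 3 counts it was at least 2.29-fold higher in Flag-IP 1 and at least 2.10-fold higher in Flag-IP 2. That floor leaves out the counting error of the Flag-IP counts, and the lower ends of the exact 95% intervals were 1.35-fold and 1.24-fold. It did not reach the filter on low counts and has no test here. With no filter edgeR gave an adjusted p = 0.253.

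The perilipins that most cell types make did not pass. Plin2, the coat of droplets in cells outside fat, had 16 and 16 counts in Flag-IP and 22 in IgG-IP (chromosome 4, 86648386 to 86670060, minus strand, GRCm38). Its log2 fold change was -0.32 ± 0.61 (SE, edgeR adjusted p = 0.791), and each Flag-IP library lay below the IgG-IP library by less than the counting interval. Of its 36-base transcript windows 7.23% also occur in the pseudogene Gm12551, which had 0 and 11 counts in Flag-IP and 5 in IgG-IP. Plin3, which moves from the cytosol onto small droplets, had 12 and 16 counts in Flag-IP and 9 in IgG-IP (chromosome 17, 56277476 to 56292873, minus strand, GRCm38). Its log2 fold change was 0.76 ± 0.82 (SE, edgeR adjusted p = 0.615), with both Flag-IP libraries above the IgG-IP library. Scaled to total counts the log2 fold change was -0.84 for Plin2 and 0.25 for Plin3, and neither passed. No difference was detected for Plin2 or Plin3, and at these counts a small one could be missed.

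Cidec drives fusion of droplets into the single large one of the white adipocyte, and was by far the most counted of the 8 genes. It lies on chromosome 6, 113424634 to 113435760, minus strand (GRCm38). It had 117 and 93 counts in Flag-IP, against 152 in IgG-IP, or 126 and 92.1 normalized counts against 143. Both Flag-IP libraries lay below the IgG-IP library, and Flag-IP 1 lay closer to it. The log2 fold change was -0.40 ± 0.26 (SE), which did not pass (edgeR adjusted p = 0.362). Alone, Flag-IP 1 was 0.880-fold of the IgG-IP library (95% interval 0.686 to 1.13) and Flag-IP 2 was 0.643-fold (0.491 to 0.838), counting error only. Cidec passed as lower under 2 settings, with a log2 fold change of -0.92 ± 0.30 (SE, edgeR adjusted p = 0.016) when scaled to total counts and -1.09 ± 0.26 (SE, edgeR adjusted p = 0.00138) with the GC trend removed. Its adjusted p ran between 0.00138 and 0.504 over 8 other settings. Scaling to total counts moved the log2 fold changes of all genes by a median of -0.52.

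Cidea, the CIDE gene best known from brown and beige fat, had 18 and 18 counts in Flag-IP and 15 in IgG-IP (chromosome 18, 67343604 to 67367785, plus strand, GRCm38). Its log2 fold change was 0.39 ± 0.65 (SE, edgeR adjusted p = 0.762), and it was -0.12 when scaled to total counts and -0.24 with the GC trend removed, so its direction turned with the setting. The noncoding gene B430212C06Rik overlaps the start of Cidea by 500 bases on the other strand and had 8 and 23 counts in Flag-IP and 14 in IgG-IP. Of the brown fat markers, Ucp1, the uncoupling protein, had 4 and 4 counts in Flag-IP and 2 in IgG-IP, and the 8 markers summed to 5.26 and 5.60 CPM in Flag-IP and 4.01 in IgG-IP. Prdm16, a transcription factor of brown fat, made up most of that sum in every library. Of the 4 markers that could be tested, 2 did not pass. Prdm16 was higher (339 and 384 against 214) and Ppargc1a was lower (49 and 70 against 118). Neither call was made by the likelihood ratio test or with the GC trend removed, and DESeq2 did not call Prdm16 and gave no adjusted p for Ppargc1a. Their part in the value of Cidea was not tested.

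Bscl2 encodes seipin, whose loss in human causes congenital lipodystrophy. It had 17 and 11 counts in Flag-IP, against 27 in IgG-IP (chromosome 19, 8837467 to 8848683, plus strand, GRCm38). After scaling these were 18.3 and 10.9 against 25.4, lower in both Flag-IP libraries, and the log2 fold change of -0.80 ± 0.59 (SE) did not pass (edgeR adjusted p = 0.425). It was -1.43 with the GC trend removed (edgeR adjusted p = 0.178) and -1.33 scaled to total counts (edgeR adjusted p = 0.108), still without passing. Of the windows of its transcript 29.4% are shared, on either strand, with Gng3 or with AC129217.1, an annotated gene that reads into Bscl2. Gng3, a G protein subunit gene on the other strand, had 4 and 0 counts in Flag-IP and 0 in IgG-IP, and how the authors assigned reads shared with Bscl2 is not known. AC129217.1 was not analysed here. Of the genes next to the 8, Hnrnpul2 beside Bscl2 was higher (41 and 28 counts in Flag-IP, 12 in IgG-IP, edgeR adjusted p = 0.033) and Dennd4c beside Plin2 was lower (52 and 54 against 112, edgeR adjusted p = 0.0281).

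**Figure D3:**
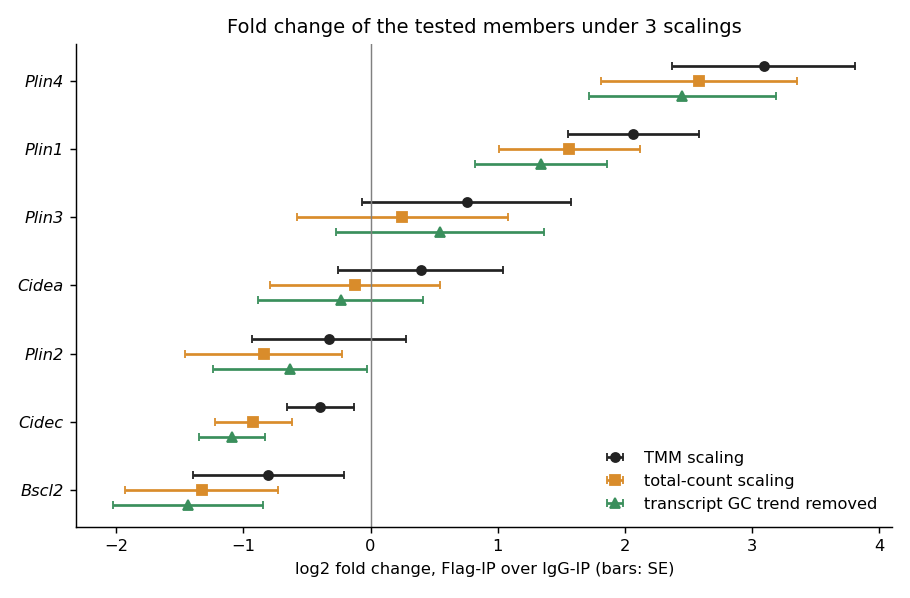
Log2 fold change of Flag-IP over IgG-IP for the 7 tested lipid droplet genes, with SE bars, under TMM scaling (black circles), total-count scaling (orange squares) and with the trend on transcript GC removed (green triangles). Plin4 and Plin1 stay above 0 in all 3, Plin2, Cidec and Bscl2 stay below 0, and Cidea crosses 0.

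Levels per length placed Cidec first in every library. In CPM per kilobase of annotated exons it stood at 0.764 and 0.559 in Flag-IP and 0.869 in IgG-IP. Cidea followed at 0.196 and 0.180 in Flag-IP and 0.143 in IgG-IP. Plin1 ranked 3 in Flag-IP, at 0.0887 and 0.141, and 5 in IgG-IP, at 0.0274. Plin4 came next in Flag-IP (0.0630 and 0.0656) but near the end in IgG-IP (0.00734), where Plin5 at 0 was last. Plin2 (0.0552 and 0.0508 in Flag-IP, 0.0664 in IgG-IP), Plin3 (0.0384 and 0.0471, and 0.0252), Plin5 (0.0349 and 0.0321) and Bscl2 (0.0350 and 0.0208, and 0.0486) lay close together in Flag-IP, where the Plin5 values fell within the spread of Bscl2. With the length of 1 chosen transcript in place of all annotated exons Plin1 (0.146 and 0.234) lay below Cidea in Flag-IP 1 and above it in Flag-IP 2, and Bscl2 was second in IgG-IP, so the order below Cidec depends on the transcript model. The counting program is not given in the sources used here. Whether reads outside annotated exons were counted is therefore unknown, and the whole order rests on exon length.

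**Figure D4:**
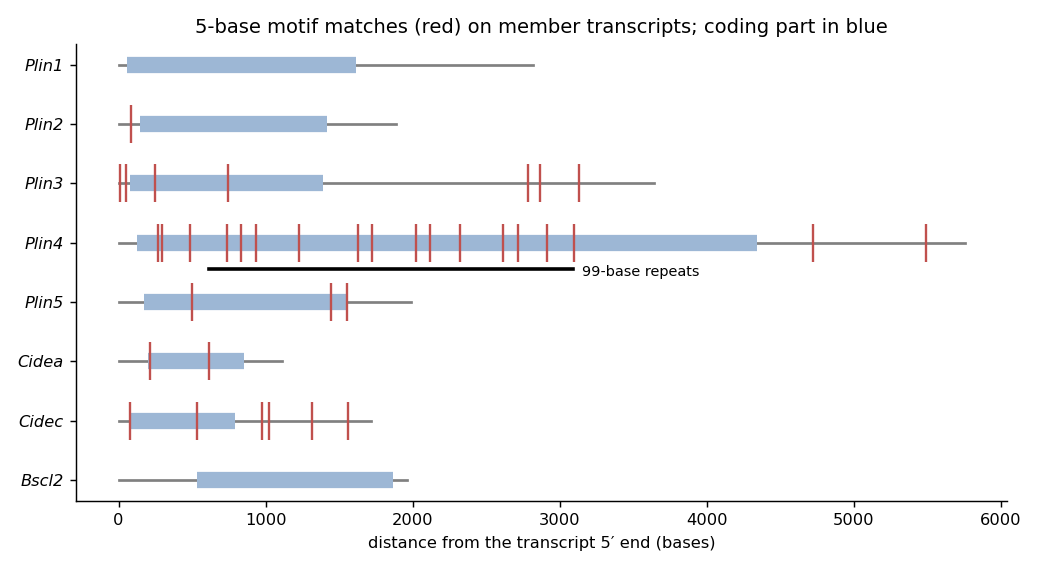
Matches to GGACT (red ticks) along the chosen transcript of each lipid droplet gene, in bases from the 5′ end, with the coding part in blue and the 99-base repeats of Plin4 marked by a black bar. Plin4 has 18 matches, Cidec 6, and Plin1 and Bscl2 none.

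GGACT, read as GGACU in RNA, is a sequence in which adenosine is often methylated in mammalian messenger RNA, so its matches were counted on the sense strand of each transcript. Plin4 held 18 matches (3.13 per kilobase), 16 of them in the coding part, a density that 1.35% of the 14892 tested coding genes reached. Cidec held 6 (3.49 per kilobase), a density that 0.759% reached. Of the 2 genes higher in Flag-IP, Plin4 was thus among the densest transcripts and Plin1 held none, like 7.80% of tested coding genes. The shorter GGAC occurred 71 times in Plin4, 6 times in Plin1 and 12 times in Cidec. Plin3 held 7 GGACT, Plin5 held 3, Cidea 2, Plin2 1 and Bscl2 0. The first match in Cidec covers the last base of its start codon, and this window is shown for comparison with the Plin4 repeat (chr6:113434467-113434496, GRCm38, minus strand, 5′ to 3′, GGACT in capitals).
Cidec start: ctgacaaggatGGACTacgccatgaagtct
Across 9063 coding genes averaging 20 counts or more, Spearman's rho between GGACT per kilobase and log2 fold change was 0.16. These genes share the same 3 libraries, and the motif density also moved with GC content (rho 0.27), whose part in it was not tested. The 96 genes with at least 3 matches per kilobase had a median log2 fold change of 0.30, and the 484 with none had -0.14. A match is a description of letters and not a methylated site.

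Of 39 other lipid droplet genes, 34 could be tested: 4 were higher in Flag-IP, 0 were lower and 30 did not pass. Over all tested genes 5.58% were called higher and 5.77% lower. The 34 genes had a median log2 fold change of 0.14. Mgll, the lipase of the last step of triglyceride breakdown, had 196 and 251 counts in Flag-IP and 120 in IgG-IP (1.02 ± 0.25, SE, on the log2 scale). Dgat2, which makes triglyceride at the droplet, had 50 and 42 against 21 (1.26 ± 0.46). Ptrf (cavin-1), needed for the caveolae of the adipocyte surface, had 56 and 42 against 18 (1.58 ± 0.46). Rnf213, a ubiquitin ligase found on droplets, had 91 and 103 against 48 (1.14 ± 0.33). For the lower direction edgeR gave 2 genes at an unadjusted p under 0.05, and the likelihood ratio test and DESeq2 gave 0, DESeq2 without an adjusted p for 32 of the 34. With the GC trend removed 0 of the 34 were called in either direction. With the likelihood ratio test 2 were higher, Ptrf and Aup1 (9 and 13 counts against 0), and Mgll, Dgat2 and Rnf213 were not called. Aup1 had not passed the main test. The partner of PLIN1 in lipolysis, Abhd5, had 6 and 11 counts in Flag-IP and 20 in IgG-IP and did not pass.

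Of 13 genes that regulate these coats, 2 passed as higher and 1 as lower, with 10 that did not pass (beside 5.58% and 5.77% of all tested genes). Their median log2 fold change was 0.77, beside 0.03 over all tested genes. Their median transcript GC was 57.0%, where that of the tested coding genes is 49.4%, and its part in the 0.77 was not tested. Ppard, a nuclear receptor for fatty acids, had 84 and 102 counts in Flag-IP and 36 in IgG-IP, and its partner Rxra had 81 and 116 against 51. Ppargc1a, a coactivator of these receptors, was the lower one. Pparg, the receptor that drives Plin1 and Cidec in fat cells, had 68 and 117 counts against 148 and did not pass. With the GC trend removed 0 of the 13 were called. The likelihood ratio test called Ppard, Esrra and Adrb3 higher, and did not call Rxra or Ppargc1a.

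Markers of other cell types are read beside the 11.3% of all tested genes called in either direction. In skeletal muscle, where Plin5 and Plin4 are also made, Ckm (23 and 19 counts in Flag-IP, 4 in IgG-IP) and Tnnt3 (39 and 26 against 9) were higher among 6 tested genes. None was lower, with 0 at an unadjusted p under 0.05 by edgeR and 0 by the likelihood ratio test. DESeq2 called 0 in either direction, but gave no adjusted p for 5 of the 6. The likelihood ratio test called Ckm and Tnnt3 higher. With the GC trend removed neither was called. The 7 muscle markers summed to 4.53 and 3.75 CPM in Flag-IP and 3.45 in IgG-IP. Ttn made up most of that sum (218 and 236 counts in Flag-IP, 271 in IgG-IP) and did not pass. The 6 tested markers had a median log2 fold change of 1.53, with 4 above 0. Acta1, skeletal actin, had 4 and 4 counts against 0. The part of the muscle markers in the values of Plin4 and Plin5 was not tested. Of 2 tested genes listed as macrophage markers Ptprc was lower (168 and 211 against 365) and Csf1r did not pass (20 and 19 against 21). DESeq2, the likelihood ratio test and the fit without the GC trend did not call Ptprc. The 5 macrophage markers in the table summed to 2.33 and 2.63 CPM in Flag-IP and 4.20 in IgG-IP, and Ptprc made up most of that sum in every library. Lyz2 and Cd14 were each at 0 and 0 counts in Flag-IP and 4 in IgG-IP, and Cd68 at 4 and 6 in Flag-IP and 2 in IgG-IP. None of 5 endothelial markers passed in either direction by edgeR, with 0 at an unadjusted p under 0.05, among them Cdh5 (33 and 40 against 31), Tek (100 and 107 against 145) and Pecam1 (122 and 167 against 127). DESeq2 called 0, but gave no adjusted p for 4 of the 5. None of the 4 tested stromal markers passed either, with 1 at an unadjusted edgeR p under 0.05, among them Dcn (27 and 13 against 38), Col1a1 (68 and 76 against 46) and Pdgfra (54 and 40 against 36). DESeq2 gave no adjusted p for any of the 4, so it could call none.

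The authors also deposited a list of 31 lipid genes with their ratios of Flag to IgG counts. None of the 8 lipid droplet genes and none of the 39 others is on it.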

How the data were processed

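White fat RNA recovered by immunoprecipitation was sequenced in 3 libraries. The authors deposited raw counts per Ensembl gene for each library, made with CASAVA 1.7, Bowtie 0.12.2 and build mm8, per the submitters' processing notes. With counting program, annotation and strand use not given in the sources used here, overlapping and antisense genes are uncertain. The second deposited table holds counts and their unscaled ratio for lipid genes and was used to look up names. Count columns were matched to libraries by sample number.

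Genes were kept by filterByExpr (minimum count 10), which left 17587 of 39179, and scaled by TMM (factors 0.840 and 0.936 for Flag-IP, 1.27 for IgG-IP). Flag-IP was tested against IgG-IP with edgeR 4.0.16 (R 4.3.3, prior count 0.125), with an adjusted p threshold of 0.05. The fit has 1 residual degree of freedom, from the Flag-IP pair, and it assumes that the lone IgG-IP library varies alike. No gene had a finite prior degree of freedom, so each p rests on a variance shared over genes and not on the gene's own spread. The likelihood ratio test and the fits without a Flag-IP library used a common dispersion of 0.0359 for all genes. An SE is the fold change divided by the square root of F. The procedure was tested on simulated data. Other settings were RLE, upper-quartile and total-count scaling, DESeq2 1.42.0, no filter, a mean count of 50 or more, edgeR's likelihood ratio test, a prior count of 2, a lowess trend on transcript GC, and each Flag-IP library left out. Positions, transcripts and GC are from GENCODE M21 (GRCm38), matched by Ensembl identifier for 37607 genes, and printed sequences from its transcripts. The transcript per gene was the longest with APPRIS principal and CCDS tags.

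The lipid droplet genes and all gene lists were chosen with earlier results of these data known. Named from each list are the genes called, or else the 3 with the largest fold change and a mean of at least 20 counts, with genes that overlap or neighbour a lipid droplet gene and the 3 nearest to Plin1 in log2 CPM. Abhd5, Pparg, Adipoq, Ucp1, Acta1, Nrip1, Lpl, Lyz2, Cd14, Cd68, Csf1r, the GGACT motif and the Plin4 repeat were chosen after values were seen. So were Retn, Slc2a4, Cfd, Fabp4, Aup1, Esrra, Adrb3 and Ttn.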

Additional observations from a re-analysis of the deposited data

How the results depend on the processing

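With the trend on transcript GC removed, 390 genes were higher and 372 lower in Flag-IP, where TMM scaling gave 981 and 1015. Total-count scaling gave 342 higher and 3008 lower, and DESeq2 gave 131 and 145, leaving 15684 genes without an adjusted p. Of 71 recomputed fold changes of the 7 tested lipid droplet genes, 66 kept their direction and, where there was an adjusted p, their side of the threshold. The others were Plin1 with the GC trend removed, at 1.34 and no longer past the threshold, Cidec at -0.92 with total-count scaling and -1.09 with the GC trend removed, both past it, and Cidea at -0.12 and -0.24 under the same settings, with its direction turned. The cause was not tested. Some settings could not move a gene across the threshold. A prior count of 2 leaves the adjusted p as in the main fit, and DESeq2 and the fits without a Flag-IP library gave no adjusted p for these genes. Left with 1 Flag-IP library there is no spread to test, so no count of genes was made. Without either library in turn the log2 fold change was 1.69 to 2.36 for Plin1, 3.06 to 3.12 for Plin4, 0.60 to 0.89 for Plin3, 0.33 to 0.45 for Cidea, -0.39 to -0.26 for Plin2, -0.64 to -0.18 for Cidec and -1.21 to -0.47 for Bscl2. At a mean of at least 50 counts Cidec was the only one of the 8 tested. No paired analysis was possible because the groups share 1 replicate number and the IgG-IP group has 1 library. The lone IgG-IP library and the low counts limit every value.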
